A study of Mus musculus with 6 samples.

Results

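The genes examined here encode the subunits of integrins and laminins. They were taken from the deposited gene table by a rule on their symbols alone, which found 37 genes among the 24623 tested: 18 integrin alpha subunits, 8 integrin beta subunits and 11 laminin chains. L4/5 dorsal root ganglia (DRGs) were taken from male C57BL/6 mice, wild type and 8 to 12 weeks old. Mice in the LBP group were given LBP, a polysaccharide extract of wolfberry, by mouth at 100 mg/kg for 13 days, and mice in the PBS group were given the saline vehicle over the same time. Each group had 3 samples, 1 per GeneChip Mouse Gene 2.0 ST array. By the methods, DRGs came from 3 separate sets of mice with 3 mice in each, and RNA of each set was hybridised. The wording reads as 3 mice on an array, but pooling is not stated outright. The p-values therefore measure the spread between these samples, whatever it stems from. The treatment text shared by all 6 samples mentions LBP alone, so the PBS group rests on the titles and the treatment labels.

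Integrins are cell surface receptors made of 1 alpha and 1 beta subunit, which bind the extracellular matrix or other cells outside and the actin cytoskeleton inside. Laminins are trimers of an alpha, a beta and a gamma chain and are the main adhesive proteins of basement membranes. In peripheral nerve and ganglia, Schwann cells and satellite glia are wrapped in a basement membrane rich in laminin. Sensory neurons extend axons on laminin through integrins that contain Itgb1, which is why these genes are often examined where axon growth is concerned.

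The arrays were alike in scale, with medians of log2 intensity between 6.45 and 6.46 and correlations across genes between 0.99 and 0.994 for any 2 arrays. Values are log2 intensities after quantile normalization, so that a difference of 1 is a doubling, and a value says little about how one gene compares with another because probes differ in brightness. A gene was called dim on an array when it lay under that array's lower quartile (5.04 to 5.05). Markers of sensory neurons (Isl1, Avil, Scn10a and 11 more) and of Schwann cells (Pmp22, Mbp and 9 more) were above it on every array. Among the 37 genes, 34 were above the lower quartile on all 6 arrays, and Itgad was dim on all 6. Each gene was tested with limma, a linear model that borrows information on the spread from all other genes. The adjusted p-values follow Benjamini and Hochberg, over the 24623 genes.

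Some arrays stood apart in their marker genes. On LBP replicate 1, 9 of 12 fibroblast and perineurium markers and 10 of 11 Schwann cell and myelin markers had their lowest value of the 6 arrays. On LBP replicate 2, all 11 Schwann cell and myelin markers and all 9 central nervous system markers had their highest value, and on PBS replicate 2 the same held for 10 of 12 fibroblast and perineurium markers. The summed linear intensity of fibroblast and perineurium markers was 7630 to 10200 in the LBP group and 8950 to 11300 in the PBS group. That of Schwann cell and myelin markers was 17000 to 24200 in the LBP group, against 19200 to 20400 in the PBS group, and that of central nervous system markers 485 to 1350 in the LBP group, against 460 to 505 in the PBS group. Skeletal muscle markers varied most, with medians relative to the PBS mean of 0.14, -1.14 and -0.34 on LBP arrays and 0.42, -1.03 and 0.52 on PBS arrays. Their summed intensity was 887 to 2400 in the LBP group, against 1070 to 3380 in the PBS group. No marker of these lists was listed at 0. In a whole ganglion, fewer cells of a type and less RNA per cell cannot be told apart.

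No integrin or laminin gene passed the adjustment over all genes, and the differences were small. Log2 fold changes of LBP over PBS ran from -0.25 (Lamb2) to 0.18 (Lamb3). Of the 37 genes, 26 (70.3%) were lower on average in the LBP group and 11 higher, with a median of -0.05, while 50.3% of all genes were lower and the median of all genes was 0.00. At an adjusted p under 0.05, 0 of 37 genes were called by limma, against 0.00812% of all genes (2 genes). At an unadjusted p under 0.05, 1 gene (2.70%) was lower, Itgb6, where 2.65% of all genes were, and 0 genes were higher, where 2.07% of all genes were. The share of these genes past that threshold was thus close to the background.

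Every LBP value lay on the same side of every PBS value for 6 genes. Itgb6, Itga3, Itgav and Lama2 (10.8% of the 37) were lower without overlap, against 5.28% of all genes. Itgal and Itgad (5.41%) were higher without overlap, against 4.35% of all genes. With 3 arrays against 3, an exact two-sided permutation test of such a gene gives 0.1, the smallest p it can reach.

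The 95% intervals of limma are for each gene on its own and refer to the intensity in whole ganglia. Over 37 genes, some intervals may miss the true difference. The median interval reached 0.25 to either side of the estimate, and 35 of the 37 intervals lay within -0.5 and 0.5 on the log2 scale. The interval of Lamb2 had the end farthest from 0, and ran from -0.58 to 0.07. Itgb6 was the only gene whose interval left out 0.

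**Figure D1:**
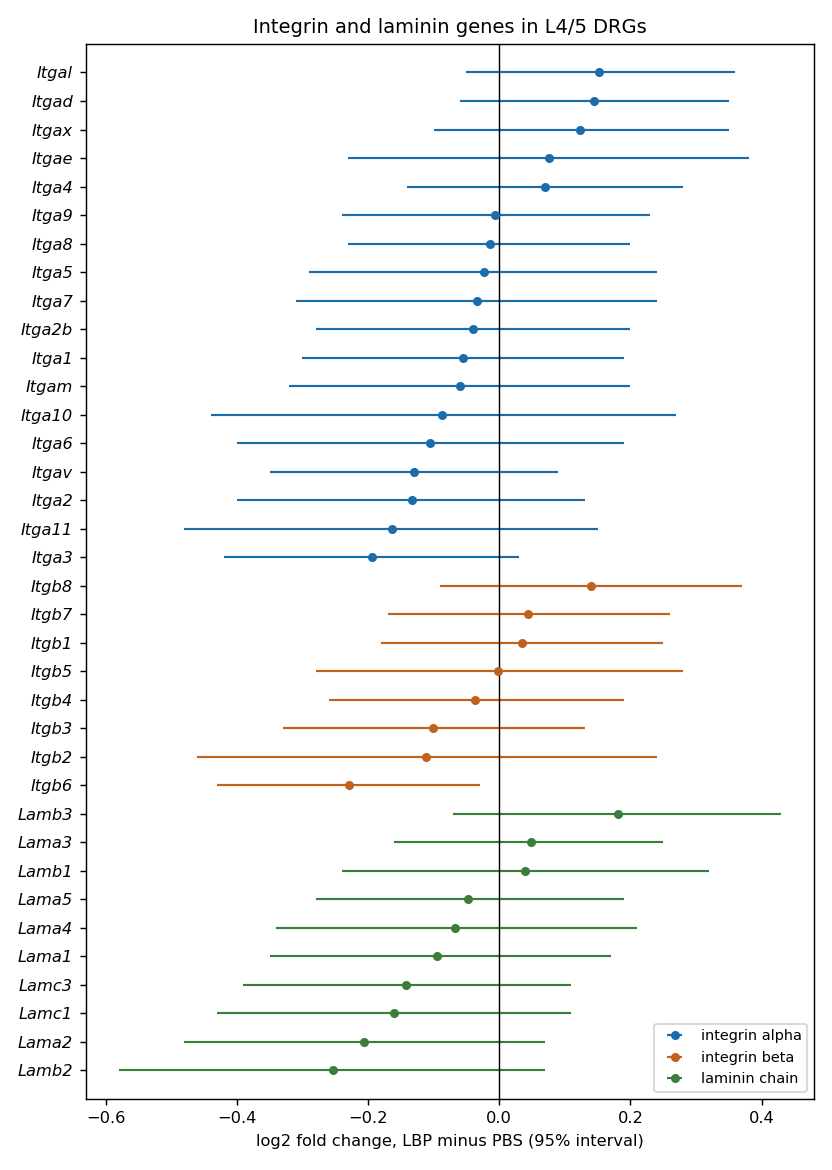
Log2 fold change of LBP over PBS (x axis) for 36 of the 37 genes (y axis), with 95% intervals from limma and 3 arrays per group; genes are ordered within integrin alpha (blue), integrin beta (orange) and laminin (green). The estimates lie between -0.25 and 0.18, and the interval of Itgb6 alone does not reach 0.

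Among the laminin receptors, Itga3, which pairs with Itgb1, had the lowest fold change of all alpha subunits. Its log2 intensity was 8.26, 8.44 and 8.24 on LBP arrays and 8.56, 8.45 and 8.53 on PBS arrays. The groups did not overlap, although LBP replicate 2 (8.44) came close to PBS replicate 2 (8.45). Itga3 averaged 8.32 ± 0.11 in the LBP group and 8.51 ± 0.06 in the PBS group (SD, n = 3 each). On the log2 scale the fold change was -0.19 (standard error 0.10, limma p = 0.0800, adjusted p = 1.00, exact permutation p = 0.1). Without LBP replicate 2 it was -0.26, which passed an unadjusted p of 0.05 and not the adjustment (limma adjusted p = 0.77). Leaving out any other array gave -0.23 to -0.16, with a limma p of 0.0843 to 0.191.

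Itga6 pairs with Itgb1 or Itgb4 and is a laminin receptor of Schwann cells and neurons. It was at 9.10, 9.51 and 9.17 on LBP arrays and at 9.54, 9.26 and 9.29 on PBS arrays. LBP replicate 2 and PBS replicate 1 were the high arrays, and the groups overlapped. Its fold change came to -0.11 on the log2 scale (standard error 0.13, 95% interval -0.40 to 0.19).
Itga7, a laminin receptor that regenerating sensory and motor neurons are known to use, was at 8.88, 9.20 and 8.80 on LBP arrays and at 9.07, 8.99 and 8.91 on PBS arrays. Its highest and lowest values were both on LBP arrays, so the groups overlapped fully. For Itga7 the log2 fold change was -0.03 (standard error 0.12), with an interval from -0.31 to 0.24.

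The collagen receptors, which all pair with Itgb1, had slightly negative fold changes and overlapping groups. Itga11, found on fibroblasts, had the most negative one, -0.16 (standard error 0.14), with 6.13 to 6.68 in the LBP group and 6.41 to 6.63 in the PBS group. Its value hung on single arrays, with -0.04 when LBP replicate 3 was left out and -0.32 when LBP replicate 2 was left out. The fit without LBP replicate 2 passed an unadjusted p of 0.05 and not the adjustment (limma adjusted p = 0.77). Itga2 had -0.13, Itga10 -0.09 and Itga1 -0.05. Itga1 and Itga2, neighbours on chromosome 13 in the GRCm38.p6 annotation, lay at 7.81 to 8.05 (Itga1) and 7.52 to 7.71 (Itga2) on LBP arrays, and at 7.93 to 8.13 (Itga1) and 7.57 to 7.93 (Itga2) on PBS arrays. Itga10, a cartilage integrin, had one of the widest spreads of the 37 genes, 5.49 to 6.00 on LBP arrays and 5.51 to 5.94 on PBS arrays.

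Itgav, which pairs with Itgb1 and with Itgb3, Itgb5, Itgb6 and Itgb8 in receptors for vitronectin and latent TGF-beta, was at 6.71, 6.76 and 6.73 on LBP arrays and 6.79, 6.98 and 6.82 on PBS arrays. The groups did not overlap, and PBS replicate 2 stood above the other PBS arrays. Itgav had a fold change of -0.13 on the log2 scale (standard error 0.10, limma p = 0.208, adjusted p = 1.00, exact permutation p = 0.1), and it was -0.07 without PBS replicate 2. Other subunits that recognise the RGD motif differed less. Itga5, the fibronectin receptor, had a log2 fold change of -0.02 (6.17 to 6.39 on LBP arrays and 6.11 to 6.47 on PBS arrays). Itga8, a receptor for nephronectin, had -0.01 (5.55 to 5.75 on LBP arrays and 5.64 to 5.69 on PBS arrays). Itga2b, the fibrinogen receptor of platelets, had -0.04 (6.25 to 6.56 on LBP arrays and 6.39 to 6.48 on PBS arrays). In each of these 3 genes the LBP values overlapped the PBS values.

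Itga9, which binds tenascin-C and Vcam1 and is known to support axon growth on tenascin-C when it is introduced into neurons, was at 6.64 to 6.89 on LBP arrays and 6.77 to 6.86 on PBS arrays, a difference of -0.01 on the log2 scale (standard error 0.10). Its close relative Itga4, carried by lymphocytes and monocytes and also by some neural crest derivatives, was at 7.28 to 7.44 on LBP arrays and 7.26 to 7.35 on PBS arrays, a change of 0.07. Both intervals covered 0, from -0.24 to 0.23 for Itga9 and from -0.14 to 0.28 for Itga4.

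Of the 8 leukocyte integrin subunits, 6 had a positive fold change and 2 a negative one, with a median of 0.07 and none at a limma p under 0.05. Over all genes, 50.3% had a negative one. All 5 alpha subunits with a positive fold change (Itgal, Itgad, Itgax, Itgae and Itga4) are known from leukocytes. The other 13 alpha subunits, the leukocyte subunit Itgam among them, had a negative one. Itgal, the alpha subunit of the lymphocyte receptor for Icam1, was at 5.69, 5.75 and 5.65 on LBP arrays and at 5.61, 5.52 and 5.50 on PBS arrays. The LBP values were all above the PBS values, with the closest at 5.65 (LBP) and 5.61 (PBS). The log2 fold change of Itgal was 0.15 (standard error 0.09, limma p = 0.130, adjusted p = 1.00, exact permutation p = 0.1), the highest of the alpha subunits.
Itgad, a macrophage subunit, was at 4.74, 4.60 and 4.63 on LBP arrays and at 4.48, 4.53 and 4.53 on PBS arrays. It too was higher without overlap, but was dim on every array. Its log2 fold change was 0.15 (standard error 0.09, limma p = 0.153, adjusted p = 1.00, exact permutation p = 0.1).
Itgax, a dendritic cell subunit, had 0.12 (5.07 to 5.31 on LBP arrays and 5.02 to 5.11 on PBS arrays, dim on 2 arrays). Itgae, the receptor of intraepithelial lymphocytes for E-cadherin, had 0.08 (5.21 to 5.36 on LBP arrays and 4.98 to 5.53 on PBS arrays, dim on 1 array). The sign of Itgae was not stable, with -0.05 without PBS replicate 2 and 0.22 without PBS replicate 3. Itgam, the complement receptor of macrophages and neutrophils, went the other way with -0.06 (6.21 to 6.42 on LBP arrays and 6.24 to 6.58 on PBS arrays). Itgam, Itgax and Itgad are direct neighbours on chromosome 7.
Most markers of lymphocytes and macrophages were lower on average in the LBP group, and their link to the values of these subunits was not tested. Of the lymphocyte markers 2 of 10 had a positive fold change (median -0.10), with a summed linear intensity of 426 to 453 in the LBP group and 461 to 489 in the PBS group. Of the macrophage markers 3 of 8 had a positive one (median -0.09), with 1140 to 1610 in the LBP group and 1210 to 1730 in the PBS group. No marker of either list was at 0.

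Itgb6 was lower in LBP-treated DRGs with the smallest spread of any of the 37 genes. Its product pairs with Itgav, is best known from epithelia and releases active TGF-beta from its latent complex. The gene, on chromosome 2, was at 5.27, 5.28 and 5.32 on LBP arrays and at 5.51, 5.51 and 5.53 on PBS arrays. The closest values of the groups were 5.32 (LBP) and 5.51 (PBS), and all lay not far above the lower quartile of the arrays. Itgb6 averaged 5.29 ± 0.03 in the LBP group and 5.52 ± 0.01 in the PBS group (SD, n = 3 each). This is 0.853 times the PBS level, or -0.23 on the log2 scale (standard error 0.09, 95% interval -0.43 to -0.03). Its limma p was 0.0285, its adjusted p 1.00 and its exact permutation p 0.1. Its spread within groups (SD 0.02) was in the lowest 0.191% of all genes, which limma moves towards the spread of other genes. The fold change stayed between -0.24 and -0.22 without any 1 array, but the unadjusted p of limma was above 0.05 when LBP replicate 1 (0.0676) or PBS replicates 1 (0.0584), 2 (0.06) or 3 (0.0849) were left out in turn.

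Itgb8 had the highest fold change of the beta subunits. It pairs with Itgav, binds latent TGF-beta and is known from glia. It was at 10.61, 10.66 and 10.80 on LBP arrays and at 10.45, 10.64 and 10.57 on PBS arrays. Only PBS replicate 2 reached into the LBP range. For Itgb8 the log2 fold change was 0.14 (standard error 0.10, 95% interval -0.09 to 0.37). Of other subunits that pair with Itgav, Itgb5 had 0.00 (7.99 to 8.39 on LBP arrays and 8.02 to 8.25 on PBS arrays) and Itgb3, which platelets also carry, had -0.10 (7.63 to 7.89 on LBP arrays and 7.82 to 7.87 on PBS arrays). Itgb3 and Itgb6 thus had a negative fold change, Itgb8 a positive one and Itgb5 almost none, and only the interval of Itgb6 left out 0.

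Itgb1, the common partner of most alpha subunits, was at 10.64, 10.58 and 10.74 on LBP arrays and at 10.55, 10.67 and 10.64 on PBS arrays. The groups overlapped. It averaged 10.65 ± 0.09 in the LBP group and 10.62 ± 0.06 in the PBS group (SD, n = 3 each), which gave 0.03 on the log2 scale (standard error 0.10, 95% interval -0.18 to 0.25). Itgb4, which pairs with Itga6 on the outer surface of myelinating Schwann cells, was at 6.84, 7.0 and 6.89 on LBP arrays and at 6.88, 7.06 and 6.90 on PBS arrays. These groups overlapped as well, with a difference of -0.04 on the log2 scale (standard error 0.10, 95% interval -0.26 to 0.19).
The leukocyte beta subunits had overlapping groups and opposite signs. Itgb2, the partner of Itgal, Itgam, Itgax and Itgad, had -0.11 (6.50 to 6.88 on LBP arrays and 6.54 to 7.12 on PBS arrays) with a within-group SD of 0.25, among the widest of the 37 genes. Itgb7, the partner of Itga4 and Itgae, had 0.04 (6.02 to 6.17 on LBP arrays and 6.02 to 6.13 on PBS arrays).

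**Figure D2:**
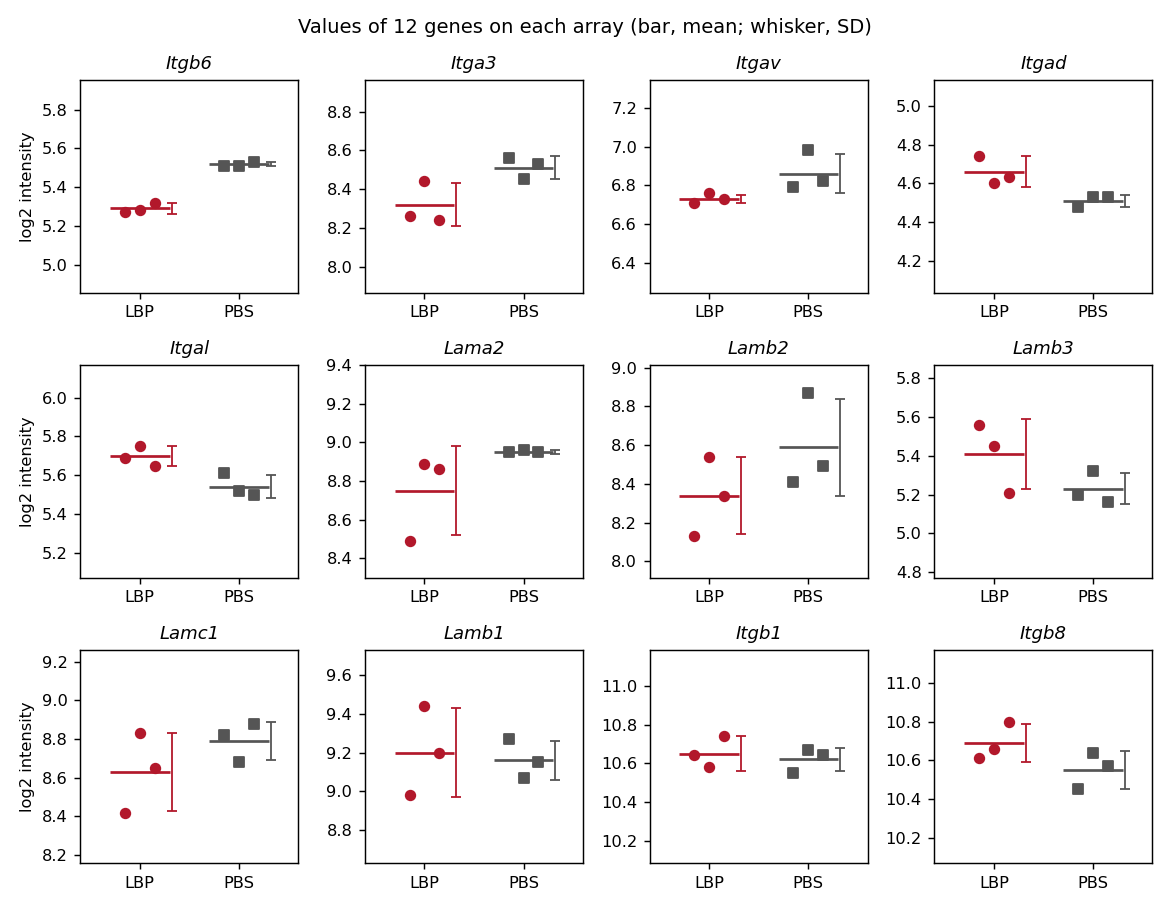
Log2 intensity (y axis, 1.1 units tall in every panel) of 12 integrin and laminin genes on each of the 3 LBP arrays (red circles, left) and 3 PBS arrays (grey squares, right), with the group mean (bar) and SD (whisker). Itgb6, Itga3, Itgav, Itgad, Itgal and Lama2 do not overlap between groups, and the others do.

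Laminin chains were lower on average in the LBP group for 8 of 11 genes, with a median log2 fold change of -0.09, and none had a limma p under 0.05. The values of 7 of the 11 chains (Lama2, Lama4, Lama5, Lamb1, Lamb2, Lamc1 and Lamc3) were lowest on LBP replicate 1. Over all genes, 15% had their lowest value on that array.
Lama2, the alpha chain of the Schwann cell and muscle basement membrane whose loss causes a muscular dystrophy with neuropathy, was at 8.49, 8.89 and 8.86 on LBP arrays and at 8.95, 8.96 and 8.95 on PBS arrays. The groups did not overlap, with LBP replicate 1 far below the rest. The arrays lowest in skeletal muscle markers were LBP replicate 2 and PBS replicate 2, on which Lama2 was at 8.89 (LBP) and 8.96 (PBS). The part of muscle in the Lama2 values was not tested. Lama2 averaged 8.75 ± 0.23 in the LBP group and 8.95 ± 0.01 in the PBS group (SD, n = 3 each). On the log2 scale Lama2 had -0.21 (standard error 0.12, limma p = 0.122, adjusted p = 1.00, exact permutation p = 0.1), and it was -0.08 without LBP replicate 1.

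Lamb2, the beta chain of synaptic and perineurial basement membranes, had the lowest fold change of all 37 genes. It was at 8.13, 8.54 and 8.34 on LBP arrays and at 8.41, 8.87 and 8.49 on PBS arrays. LBP replicate 1 was the low array and PBS replicate 2 the high one, and LBP replicate 2 lay among the PBS values. Lamb2 had a fold change of -0.25 on the log2 scale (standard error 0.15, limma p = 0.115, adjusted p = 1.00, exact permutation p = 0.3). Leaving out LBP replicate 1 gave -0.15, leaving out PBS replicate 2 gave -0.11, and leaving out LBP replicate 2 gave -0.35 (limma adjusted p = 0.77).

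Lamc1, the gamma chain of most laminins, was at 8.42, 8.83 and 8.65 on LBP arrays and at 8.82, 8.68 and 8.88 on PBS arrays. Only LBP replicate 2 reached the upper PBS values. The log2 fold change of Lamc1 was -0.16 (standard error 0.12, 95% interval -0.43 to 0.11), and -0.06 without LBP replicate 1.
Lamb1, which joins Lama2 and Lamc1 in the Schwann cell laminin, was at 8.98, 9.44 and 9.20 on LBP arrays and at 9.27, 9.07 and 9.15 on PBS arrays. LBP replicates 1 and 2 were the lowest and the highest of the 6 arrays. Its difference between groups was 0.04 on the log2 scale (standard error 0.13, 95% interval -0.24 to 0.32), which was 0.15 without LBP replicate 1 and -0.08 without LBP replicate 2. The 3 chains of this trimer did not share a sign, but the sign of Lamb1 depended on which arrays were used.

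Lama4, the chain of endothelial and perineurial basement membranes, had -0.07 (8.86 to 9.22 on LBP arrays and 9.02 to 9.28 on PBS arrays). Lama5, the other vascular alpha chain, had -0.05 (6.18 to 6.45 on LBP arrays and 6.30 to 6.44 on PBS arrays). Both genes had overlapping groups and changed sign when LBP replicate 1 was left out, to 0.03 for Lama4 and 0.01 for Lama5. Endothelial and pericyte markers had as many positive as negative fold changes (6 and 6 of 12, median 0.01).
Lama1, known mainly from embryonic basement membranes, had -0.09 (5.58 to 5.92 on LBP arrays and 5.77 to 5.97 on PBS arrays). Lamc3 had -0.14 (6.23 to 6.55 on LBP arrays and 6.42 to 6.59 on PBS arrays). Both had overlapping groups.

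Lama3 and Lamb3 are chains of epithelial laminins. Lamb3 had the highest fold change of the 37 genes, with 5.56, 5.45 and 5.21 on LBP arrays and 5.20, 5.32 and 5.16 on PBS arrays. LBP replicates 1 and 2 were above every PBS array, and LBP replicate 3 was not. Lamb3 had 0.18 on the log2 scale (standard error 0.11, limma p = 0.145, adjusted p = 1.00, exact permutation p = 0.2), and it had 0.10 without LBP replicate 1. Without LBP replicate 3 it had 0.28, past an unadjusted p of 0.05 and not past the adjustment (limma adjusted p = 0.999). Lama3 had 0.05 (6.67 to 6.76 on LBP arrays and 6.65 to 6.72 on PBS arrays), and its groups overlapped.

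**Figure D3:**
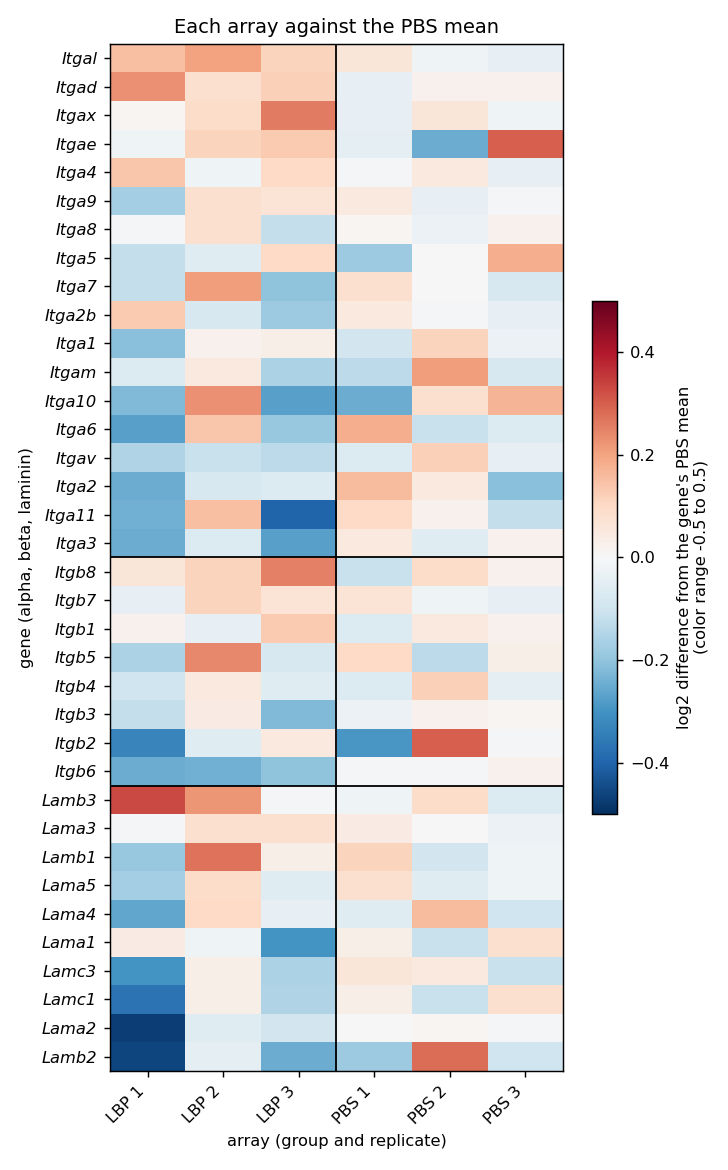
Difference of each array (columns, LBP left of PBS) from the PBS mean of the same gene (rows, 36 of the 37 genes in the order of the fold changes), on the log2 scale with red for higher and blue for lower. The column of LBP replicate 1 holds the lowest value of 17 genes, among them Lama2 and Lamb2, and that of LBP replicate 2 the highest value of 11.

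Across the 37 genes, the LBP arrays did not sit together. The lowest of the 6 values fell on LBP replicate 1 for 17 of the 37 genes, against 15% of all genes, and the highest on LBP replicate 2 for 11 of the 37, against 20.1% of all genes. Taken as a difference from the PBS mean of the same gene, the median of the laminin chains was -0.19, 0.03 and -0.06 on LBP replicates 1, 2 and 3, against 0.03, 0.01 and -0.03 on the PBS replicates. The integrin alpha subunits had -0.12, 0.08 and -0.09 on LBP arrays, against 0.00, 0.01 and -0.03 on PBS arrays. The integrin beta subunits had -0.11, 0.05 and 0.00 on LBP arrays, against -0.05, 0.04 and 0.01 on PBS arrays. The PBS differences of each gene are centred by construction, while the LBP differences also carry the difference between groups. On the same arrays the median of the fibroblast and perineurium markers was -0.55, -0.11 and -0.11 after LBP, against -0.16, 0.18 and -0.06 after PBS. The Schwann cell and myelin markers had -0.24, 0.53 and -0.01 after LBP, against 0.02, -0.06 and 0.02 after PBS, and the central nervous system markers had -0.07, 1.12 and 0.04 after LBP, against 0.05, -0.04 and 0.07 after PBS. LBP replicate 1 was thus low in laminins, fibroblast markers and myelin markers, and the part of these markers in the laminin values was not tested. Between groups, 11 of the 12 fibroblast and perineurium markers were lower on average after LBP (median -0.19), where 50.3% of all genes were. Without LBP replicate 1, 19 of the 37 genes were lower in the LBP group and 18 higher, with a median of 0.00. Without LBP replicate 2, 27 were lower and 10 higher, with a median of -0.11. Leaving out any other array gave 21 to 24 lower.

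**Figure D4:**
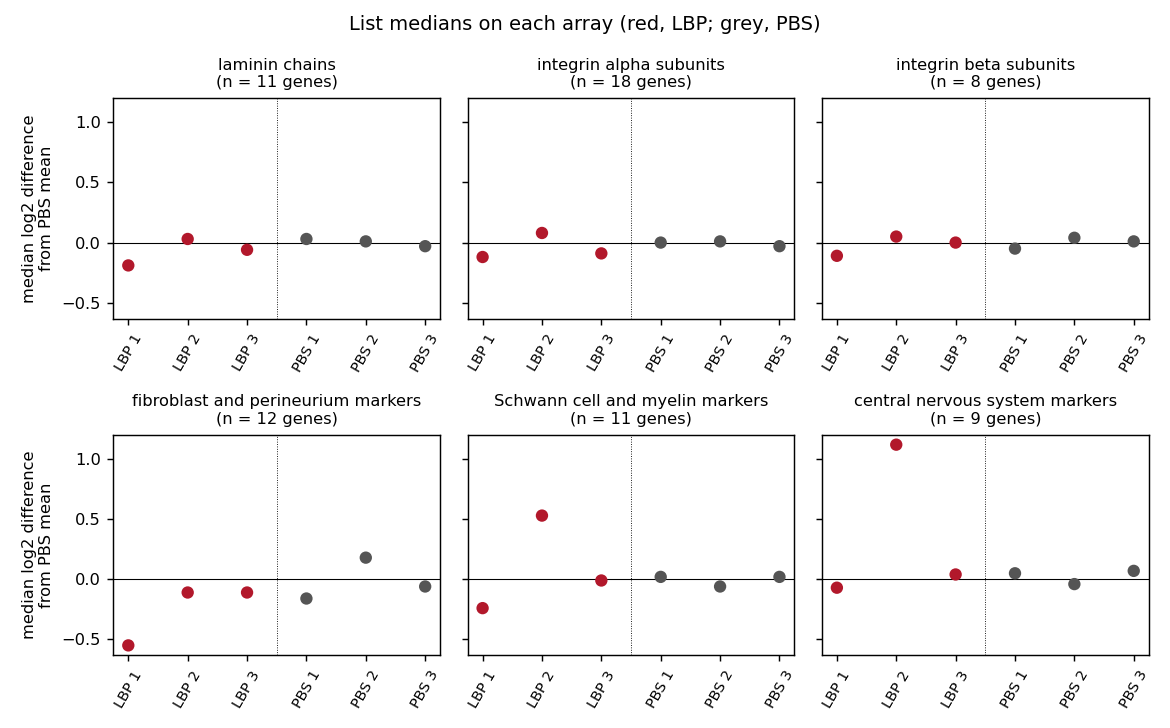
Median log2 difference from the PBS mean (y axis) on each LBP array (red, left) and PBS array (grey, right) for laminin chains, integrin alpha and beta subunits and markers of 3 cell or tissue types. Laminin chains and fibroblast markers are lowest on LBP replicate 1 (-0.19 and -0.55), and myelin and central nervous system markers are highest on LBP replicate 2 (0.53 and 1.12). The PBS differences of each gene are centred by construction.

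Of the listed genes that work with integrins and laminins, only ligands passed an unadjusted p under 0.05, and all were lower in the LBP group. The 77 partner genes held 3 (3.90%) lower at that threshold, against 2.65% of all genes, and 0 higher, against 2.07% of all genes, with 0 at an adjusted p under 0.05 by limma. These were Npnt, Fn1 and Thbs1, out of 27 ligands of integrins other than laminins.
Npnt encodes nephronectin, the ligand of the integrin with Itga8. It was at 6.06, 6.18 and 6.00 on LBP arrays and at 6.41, 6.92 and 6.43 on PBS arrays. The groups did not overlap, and PBS replicate 2 was the highest. On the log2 scale Npnt had -0.51 (standard error 0.14, limma p = 0.00534, adjusted p = 0.999, exact permutation p = 0.1). Leaving out LBP replicate 1 gave -0.50 and leaving out PBS replicate 2 gave -0.34, and Npnt passed an unadjusted p of 0.05 without any 1 array.
Fn1 encodes fibronectin, the ligand of the integrin with Itga5. It was at 8.39, 9.77 and 9.18 on LBP arrays and at 9.46, 10.51 and 9.83 on PBS arrays. LBP replicate 2 lay within the PBS values. Fn1 had a fold change of -0.82 on the log2 scale (standard error 0.33, limma p = 0.0328, adjusted p = 1.00, exact permutation p = 0.2), and it was -0.46 without LBP replicate 1 (limma p = 0.139), -0.54 without PBS replicate 2 (limma p = 0.128) and -0.86 without LBP replicate 3 (limma p = 0.0578).
Thbs1, which encodes thrombospondin, was at 7.33, 7.80 and 7.77 on LBP arrays and at 7.92, 8.68 and 7.82 on PBS arrays. The closest values were 7.80 (LBP) and 7.82 (PBS). For Thbs1 the log2 fold change was -0.51 (standard error 0.22, limma p = 0.0407, adjusted p = 1.00, exact permutation p = 0.1), and it was -0.36 without LBP replicate 1 (limma p = 0.154) and -0.24 without PBS replicate 2 (limma p = 0.158). The values of Fn1 and Thbs1 were lowest on LBP replicate 1 and highest on PBS replicate 2, the arrays that were low and high in fibroblast markers.

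**Figure D5:**
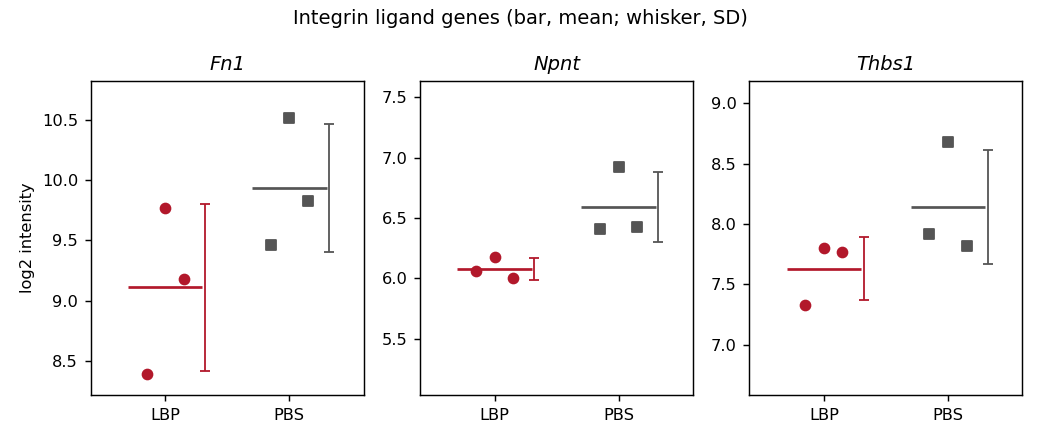
Log2 intensity (y axis, 2.6 units tall in every panel) of the integrin ligand genes Fn1, Npnt and Thbs1 on 3 LBP arrays (red circles, left) and 3 PBS arrays (grey squares, right), with the group mean (bar) and SD (whisker). Npnt and Thbs1 do not overlap between groups, and Fn1 does.

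Inside the cell, 29 integrin adaptors and signalling genes had log2 fold changes between -0.12 and 0.13 (median -0.01), with 0 at a limma p under 0.05 in either direction. The talin genes Tln1 and Tln2, which switch integrins on, had 0.06 and -0.01, the kindlin gene Fermt2 -0.01, the focal adhesion kinase gene Ptk2 0.06 and the vinculin gene Vcl -0.09. The 21 genes for basement membrane partners and laminin receptors other than integrins lay between -0.20 and 0.14 (median 0.00), again with 0 at a limma p under 0.05. Nid1 and Nid2, the nidogens that link laminin to collagen, had -0.17 and -0.16, the type IV collagen genes Col4a1 and Col4a2 had -0.19 and -0.15, and Dag1, the dystroglycan receptor of Schwann cells for laminin, had -0.04.
Here too single arrays decided a count. Without LBP replicate 2, 12 of the 77 partner genes had a limma p under 0.05. Of these, 10 were lower, Nid1 (-0.31), Hspg2 (-0.27), Col4a1 (-0.32) and Col4a2 (-0.29) of the basement membrane among them, and Rap1b (0.25) and Edil3 (0.23) were higher. In that fit 3.48% of all genes were lower and 2.86% higher at this threshold, and the adjusted p was 0.749 or more for each of the 12. Without LBP replicate 1 instead, 2 partner genes had a limma p under 0.05, Npnt (lower) and Fgb (higher). In this other fit Nid1 had -0.04, Hspg2 0.07, Col4a1 -0.13 and Col4a2 -0.07. Of all genes, 2.67% were lower and 2.4% higher at the threshold there.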

How the data were processed

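The authors hybridised RNA to GeneChip Mouse Gene 2.0 ST arrays and summarized the probes in R with expresso and MAS5. They give a rule for omitting outlier arrays but name no array that was omitted, and they quantile normalized the data. What they deposited is a table of log2 intensities by gene symbol. Tool versions and the genome build were not given in the sources used here. The table also holds the authors' own fold changes and p-values for the groups and 3 columns on single arrays, none of which was used. Scanner files were not used either, so the authors' background correction could not be varied.

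After 24 symbols damaged by date formatting were dropped, 24623 genes remained. Symbols of integrin subunits and laminin chains were matched by pattern, and 37 of 37 stand in the RefSeq annotation (GRCm38.p6), which served for names and neighbours only. Differences were tested with limma 3.58.1 (lmFit, eBayes) under R 4.3.3, two-sided, with treatment as the only factor and Benjamini-Hochberg adjustment over all 24623 genes. The script was tested on simulated data. Single genes also had an exact permutation test. The genes of the families are named, except 1 that is not reported here and stays in the counts and medians. Values on every array are given for genes at an unadjusted p under 0.05, for those whose groups do not overlap, for the highest and lowest fold change of each family and for the Schwann cell laminin and its main receptors. Alternatives were leaving out dim genes, median centring, eBayes with trend and robust, array weights, the replicate number as a block and leaving out arrays. The rule for the families reads symbols and no values, but the families, like the partner and marker lists, were chosen with earlier results of these data known. The number of arrays limits the precision.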

Additional observations from a re-analysis of the deposited data

How the results depend on the processing

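The count of 0 integrin and laminin genes at an adjusted p under 0.05 was the same under each of the 12 alternatives. The 1 gene at an unadjusted p under 0.05, Itgb6, became 0 with trend and robust set in eBayes, 3 with array weights (Itgb6, Itga3 and Lama2) and 0 to 3 without 1 array. It became 0 without both LBP replicate 1 and PBS replicate 2, a choice made after seeing the data. The count of 6 genes whose groups do not overlap was 6 to 15 without 1 array (17.2% to 23.3% of all genes) and 16 without that pair of arrays (33.4% of all genes), since fewer arrays are easier to separate. The median fold change of beta subunits (-0.02) was -0.10 to 0.03 without 1 array and 0.06 without that pair, that of alpha subunits (-0.04) -0.08 to 0.00 and 0.01, and that of laminin chains (-0.09) -0.13 to -0.06 and -0.01. The 3 partner genes at an unadjusted p under 0.05 (Npnt, Fn1 and Thbs1) became 2 with trend and robust (Npnt and Col1a1), 5 with array weights (Sdc2, Fn1, Vtn, Npnt and Col1a1), 1 (Npnt, without PBS replicate 2) to 12 (without LBP replicate 2) without 1 array, 5 without PBS replicate 1 and 1 without that pair. The cause of these shifts was not tested.

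With the replicate number as a block, 2 genes of the 37 (Itgb6 and Lamb2) and 5 partner genes had an unadjusted p under 0.05. Deviations from the group means had correlations over genes of 0.109, -0.0348 and 0.0836 between samples with the same number. Between samples with different numbers they ran from -0.243 to 0.172. Whether samples with the same number were handled together cannot be told from these values. The 6 genes whose groups do not overlap kept their direction under every alternative that tested them. For genes picked by that rule, leaving out or weighting arrays cannot reverse the direction, so this adds no evidence. Itgad was not tested with dim genes left out. Without 1 array, 1 to 7 of the 37 genes changed sign, none with a reported change above 0.11 in size, and with arrays centred on their medians 1 did (Itgb5, 0.00).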

Other observations

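Genes with related names that belong to none of the 3 families had overlapping groups and log2 fold changes between -0.29 and 0.06. Itgbl1, which encodes a protein with integrin-like repeats and stands in the list of fibroblast and perineurium markers, was at 7.10, 7.44 and 7.71 on LBP arrays and at 7.54, 7.85 and 7.72 on PBS arrays. LBP replicate 1 held its lowest value, as for Lama2 and Lamb2. The difference was -0.29 on the log2 scale (standard error 0.15, limma p = 0.0915, adjusted p = 1.00, exact permutation p = 0.2). Itgb2l had -0.07, Itgb3bp -0.01, Itgb1bp1 0.05 and Itgb1bp2 0.06.

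Cell type markers outside these families gave list medians from -0.44 (skeletal muscle, 10 genes) to 0.37 (central nervous system, 9 genes). On single LBP arrays the central nervous system median was -0.07, 1.12 and 0.04 for replicates 1, 2 and 3. The other 10 lists lay between -0.20 (neutrophils and bone marrow) and 0.09 (Schwann cells and myelin). Of the 8 satellite glia markers (median 0.04), 6 had a positive fold change and 2 a negative one. At a limma p under 0.05, 2 of them were higher (Cdh19 and Kcnj10), where 2.07% of all genes were, and 0 lower. Neither passed the adjustment (limma adjusted p = 0.999 each).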
